A study of Mus musculus with 4 samples.

Results

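A set of 6 genes of the bone morphogenetic protein pathway that acts on endothelial cells was followed across the cells of the mouse heart at embryonic day 10.5. They are the ligand gene Bmp10, the type I receptor gene Acvrl1 (ALK1), the co-receptor gene Eng (endoglin), the ALK1 target Tmem100, and Smad6 and Smad7, which encode the inhibitory SMAD proteins. Members were found by symbol, each symbol standing for 1 identifier, and these are 6 of the 32285 genes in the count tables. They were chosen by values of these data, with earlier results in view, and in particular because Tmem100 differed in opposite directions between the genotypes in chamber and cushion endocardial cells (EdCs). Differences between the genotypes in these cells are therefore given as values only, without a test.

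Hearts were taken from embryos with floxed Tie2 alleles alone (Tie2flfl, called control; libraries 5 and 7) and from embryos that carried Nfatcre in addition (Nfatcre-Tie2flfl, called Tie2-cko; libraries 6 and 8). Tie2, whose gene symbol is Tek, is the angiopoietin receptor of endothelial cells, and both genotypes carry the floxed alleles. The Cre recombinase is expressed from a knock-in at Nfatc1, which is active in the endocardium, so that vascular endothelium outside this lineage can keep Tie2. Cells were captured in droplets (10x Genomics), where each transcript receives a unique molecular identifier (UMI). The labels name the samples but do not say that each library is 1 heart. The methods give 2 hearts of each genotype from 1 litter. The p-values below therefore measure the spread between 2 libraries of a genotype, except in fits with a block of libraries.

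BMP10 is secreted by the heart and binds ALK1 with high affinity, with endoglin presenting the ligand and type II receptors such as BMPR2 completing the complex. Active ALK1 phosphorylates SMAD1, SMAD5 and SMAD9, which enter the nucleus with SMAD4 and induce targets that include Id genes, Tmem100 and the inhibitory SMAD genes. SMAD6 and SMAD7 act back on the receptors and close the loop. In the mouse heart BMP10 is known for its part in the growth of trabeculae, the muscular ridges of the ventricular wall, and mutations of ACVRL1 and ENG cause hereditary haemorrhagic telangiectasia.

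After filtering, 10097, 5684, 8449 and 9189 cells remained in libraries 5, 6, 7 and 8, with medians of 17433, 25875, 14878 and 16961 UMIs per cell. Between 12 and 29 cell barcodes were shared by any pair of libraries. The cell composition differed: libraries 5 and 6 held 246 and 317 hepatic endoderm-like cells, against 0 and 53 in libraries 7 and 8, and 533 and 562 cells of an unnamed cluster led by Cxcl13, Barx1 and Foxf1, against 1 and 2. Cell types were named here from lists of marker genes. Libraries 5, 6, 7 and 8 held 3116, 1425, 3628 and 4470 cardiomyocytes (CMs), and every CM cluster carried 7 or 8 of 8 heart muscle markers. They held 375, 139, 592 and 452 chamber EdCs, 256, 127, 432 and 442 cushion EdCs, and 84, 66, 42 and 67 vascular-like endothelial cells, each with all 6 general endothelial markers. A level below is the mean over the cells of a library of UMIs per 10000 UMIs of a cell, and is compared only within a gene. Tek checked the deletion. Its level in chamber EdCs was 0.899 and 1.01 in controls 5 and 7 and 0.123 and 0.152 for Tie2-cko 6 and 8 (log2 fold change -2.53 ± 0.18, SE; edgeR adjusted p = 0.00871), and it was the single gene called there (0.00869% of 11508). In cushion EdCs Tek was at 0.881 and 1.69 in control and 0.359 and 0.30 for Tie2-cko, and did not pass the test after adjustment (log2 fold change -2.02 ± 0.27; edgeR adjusted p = 0.121). Tek was called there with libraries 5 and 6 set against 7 and 8 as a block (-2.02 ± 0.11; edgeR adjusted p = 2.36e-67). This block was chosen from the cell composition given above, not from the labels. Its fit takes the difference between these pairs of libraries out of the spread and leaves fewer degrees of freedom. Its p-values rest more on variance shared across genes and are not evidence from replicates alone. In vascular-like endothelial cells Tek was at 0.531 and 0.670 in control and 0.731 and 0.388 for Tie2-cko, and did not pass the test (log2 fold change -0.43 ± 0.36; edgeR adjusted p = 1.00). Red cell transcripts moved with the genotype: the summed level of 5 red cell transcripts, none of which was at 0, in chamber EdCs was 92.9 and 38.9 in control and 15.5 and 14.5 for Tie2-cko, and in cushion EdCs 73.7 and 38.9 against 14.3 and 12.9. Their part in the differences described below was not tested.

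Bmp10 (ENSMUSG00000030046, protein-coding, chromosome 6, bases 87428994 to 87437677 on the plus strand of GRCm38) was found mainly in muscle cells. CMs held 92.6%, 88.3%, 97.5% and 96.1% of its UMIs in libraries 5, 6, 7 and 8. The 250 bases before its start are shown because CMs held most of the UMIs of this ligand, with the core of ETS sites in capitals (RefSeq, GRCm38.p6, chr6:87428744-87428993, plus strand).
Bmp10: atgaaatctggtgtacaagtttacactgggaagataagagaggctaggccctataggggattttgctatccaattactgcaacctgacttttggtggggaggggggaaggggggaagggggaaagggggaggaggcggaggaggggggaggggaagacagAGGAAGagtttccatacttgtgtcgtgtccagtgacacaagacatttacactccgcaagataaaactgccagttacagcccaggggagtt
The core AGGAAG lies 90 bases before the start, and again in the 50 bases after it. It is held on either strand by 35.4% of the 32851 promoter windows of 300 bases. Neither the SMAD palindrome GTCTAGAC, the GC-rich element GGCGCC, the insulin response element TTGTTTAC nor the T-box element AGGTGT was found in this window. These letters are a description of the sequence and were not tied to any value.

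Within the CMs the level of Bmp10 followed the trabecular cells. A cluster led by Nppa, Nppb and Bmp10 itself, with 90, 51, 145 and 151 cells in libraries 5, 6, 7 and 8, carried markers of trabecular CMs. Nppa and Nppb encode natriuretic peptides, which mark trabeculae and atria at this stage. Its Bmp10 level was 1.10 and 1.06 in controls 5 and 7 and 1.15 and 1.46 for Tie2-cko 6 and 8. Library 8 was the highest and the other 3 lay close together. Other ventricular-like CMs were at 0.158 and 0.184 in control and 0.194 and 0.188 for Tie2-cko, so that the trabecular-like cells stood 5.76 to 7.76 times higher in each of the 4 libraries. Atrial-like CMs were at 0.136 and 0.108 against 0.161 and 0.134 and lay below the ventricular-like cells in each of the 4 libraries. Sinus and AV canal-like CMs (mean 0.0336 ± 0.0056, SD, n = 4) and outflow-like CMs (0.0193 ± 0.0051) were lower in every library. Although few, the trabecular-like cells held 21.0%, 24%, 30.1% and 29.5% of all Bmp10 UMIs in libraries 5, 6, 7 and 8.

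**Figure D1:**
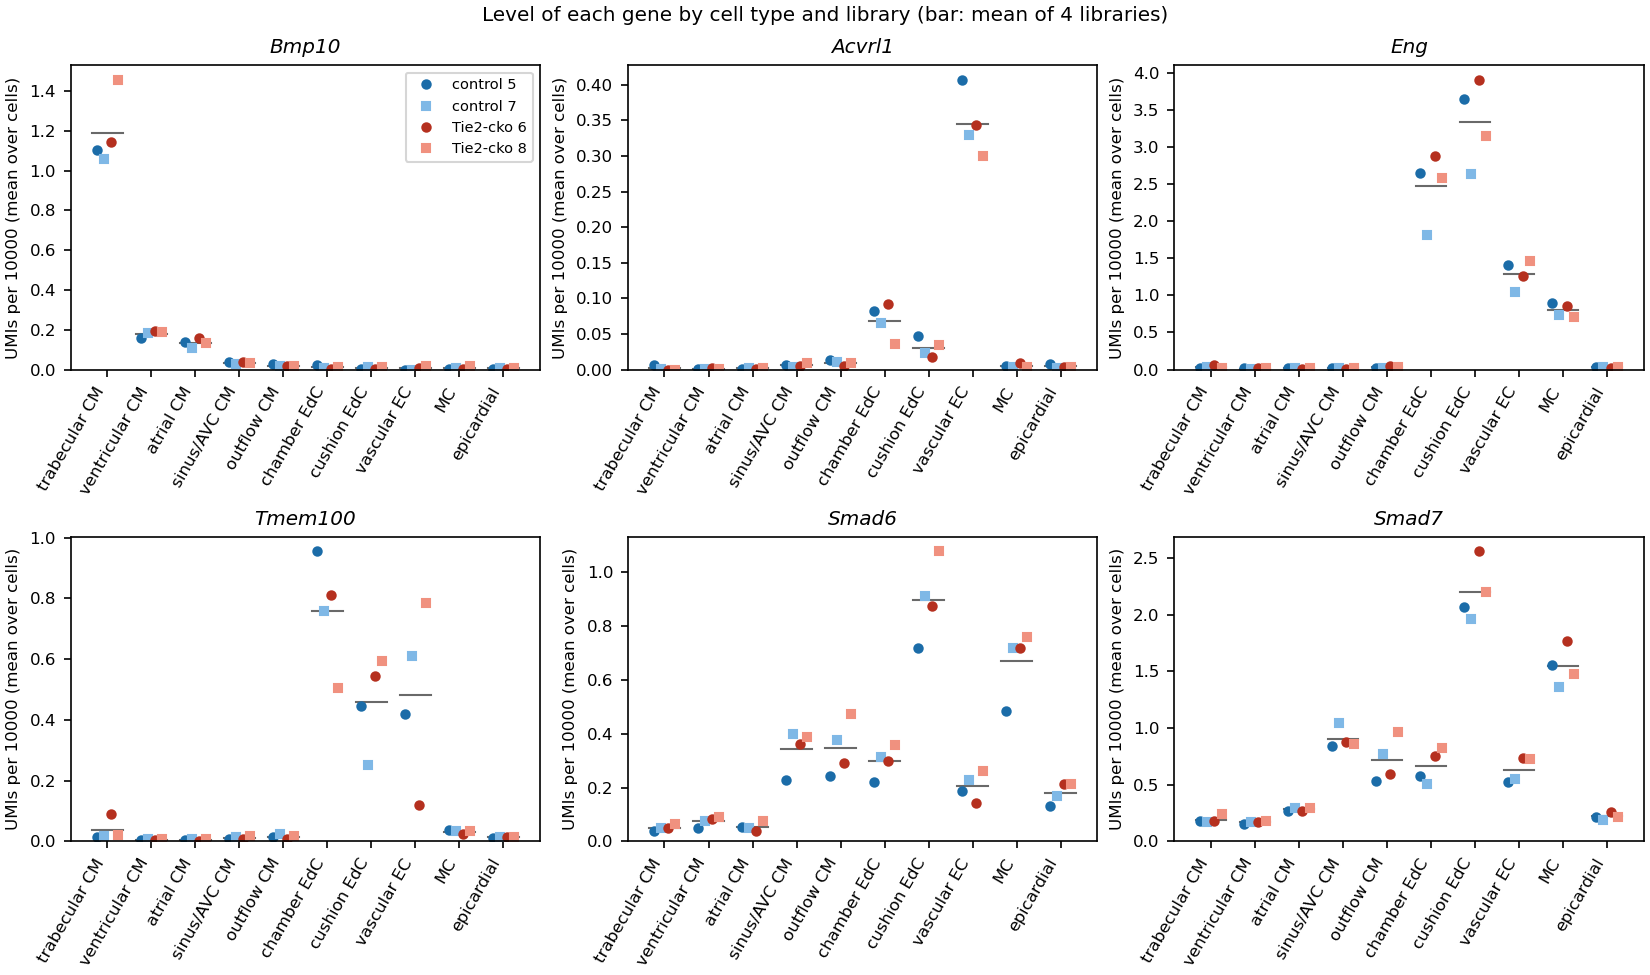
Level of each of the 6 genes (mean over cells of UMIs per 10000) in 10 cell types. Each point is 1 library and each dash the mean of 4 libraries. Bmp10 is highest in trabecular-like CMs (1.06 to 1.46), Acvrl1 in vascular-like endothelial cells (0.30 to 0.407), Tmem100 in chamber EdCs on average, and Eng, Smad6 and Smad7 in cushion EdCs.

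A split by trabecular markers gave the same order. It was not independent of that cluster, since it held the cells of the cluster and used the markers that named it. When the ventricular and trabecular CMs of each library were divided into 4 bins of equal cell number by the summed level of Nppa, Nppb, Gja5 and Slit2, the lowest bin had a Bmp10 level of 0.0431 and 0.0499 in control and 0.0437 and 0.0419 for Tie2-cko. The highest bin was at 0.501 and 0.587 in controls 5 and 7, and at 0.680 and 0.707 for Tie2-cko 6 and 8. Of the 4 bins, the highest alone had both Tie2-cko libraries above both controls, with means of 0.693 ± 0.019 and 0.544 ± 0.061 (SD, n = 2). The exact two-sided permutation test over the 4 libraries gave p = 0.333, the smallest that 2 against 2 libraries allow. Nppa, which is part of the marker sum, was itself at 270 and 251 in trabecular-like CMs of control and 207 and 191 of Tie2-cko libraries (log2 fold change -0.35 ± 0.16, edgeR adjusted p = 1.00). With libraries 5 and 6 set against 7 and 8 as a block, edgeR called Nppa lower in trabecular-like CMs (-0.37 ± 0.066, adjusted p = 2.26e-05), and also in ventricular-like (-0.42 ± 0.074) and outflow-like CMs (-0.86 ± 0.099).

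**Figure D2:**
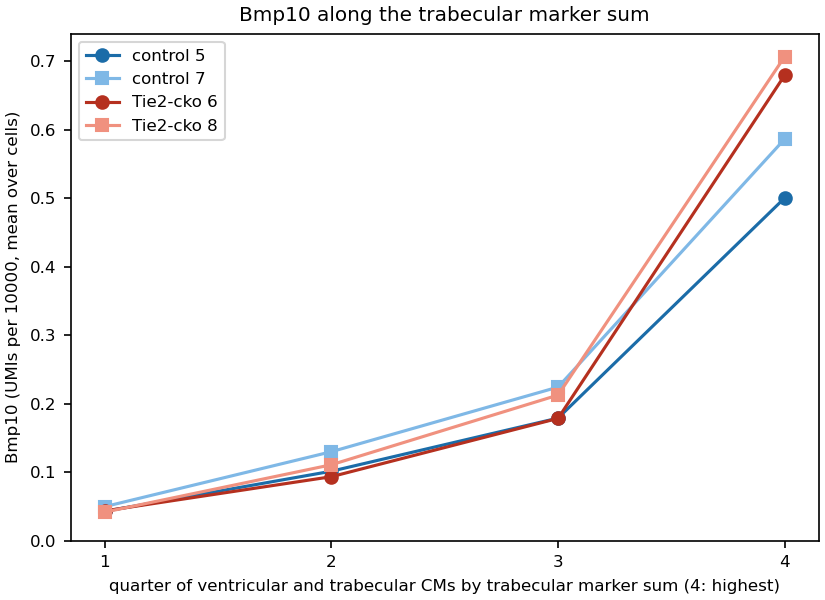
Bmp10 level (mean over cells of UMIs per 10000) in bins of the ventricular and trabecular CMs of each library, ordered by the summed level of Nppa, Nppb, Gja5 and Slit2. All 4 libraries climb from 0.0419 to 0.0499 in the lowest bin to 0.501 to 0.707 in the highest.

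On summed counts no difference in Bmp10 between the genotypes passed the test. The log2 fold change of Tie2-cko over control was 0.07 ± 0.18 (SE) in trabecular-like CMs, -0.04 ± 0.17 in ventricular-like CMs, 0.03 ± 0.19 in atrial-like CMs and 0.01 ± 0.16 over all CMs, each with an edgeR adjusted p of 1.00. The level per cell and the fit on sums treat cells of unequal depth differently, and the direction in ventricular-like CMs (means of 0.171 ± 0.018 and 0.191 ± 0.0042 per cell) differs between them.

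Outside the heart muscle, 1 unnamed cluster led by Lhx2, Shisa3 and Hlx carried Bmp10 at the level of atrial-like CMs: 0.137 (258 cells, 51 UMIs), 0.163 (287 cells, 119 UMIs), 0.124 (14 cells, 2 UMIs) and 0.125 (111 cells, 20 UMIs) in libraries 5, 6, 7 and 8. This cluster was also the highest of all for Gdf2, which encodes BMP9, the other high-affinity ligand of ALK1, with levels of 0.230, 0.351, 0.0532 and 0.202 in libraries 5, 6, 7 and 8, the third resting on 1 UMI. Of its 128 cells with a Bmp10 UMI, 75 (58.6%) also held a Gdf2 UMI, against 159 of all 670 cells. These counts were not corrected for depth, which had medians of 11238.5 to 22932 UMIs per cell in this cluster. Bmp10 in red blood cells, which should lack it, was found in 0% to 1.16% of cells thinned to 5000 UMIs. The thinned share was 5.56% to 7.20% in this cluster in libraries 5, 6 and 8, 33.8% to 47.0% in trabecular-like CMs and 0% to 0.941% in chamber EdCs, the last not exceeding the background.

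The receptor gene Acvrl1 (ENSMUSG00000000530, protein-coding, chromosome 15, bases 101128522 to 101145336, plus strand) had its highest level in vascular-like endothelial cells. The gene Gm16031 overlaps it, and how strand was used in counting is not given in the sources used here. There it was at 0.407 (70 UMIs) and 0.329 (15 UMIs) in controls 5 and 7 and 0.344 (72 UMIs) and 0.30 (41 UMIs) for Tie2-cko 6 and 8. Chamber EdCs were at 0.0824 and 0.0660 in control and 0.0916 and 0.0357 for Tie2-cko, 3.75 to 8.40 times below the vascular-like cells of the same library. Cushion EdCs were at 0.0473 and 0.0231 against 0.0178 and 0.0352. By mean level, 2 unnamed clusters stood between chamber EdCs (0.0689) and cushion EdCs (0.0309), namely that led by Prrx1, Col9a1 and Rgs5 (mean of 0.0373, range of 0.0256 to 0.0526) and that led by Cxcl13, Barx1 and Foxf1 (0.0361 to 0.0367 in 2 libraries). The ranges of these 4 overlapped, so their order is not set by these data. MCs, the mesenchymal cells of the cushions, were at 0.00342 to 0.00970, and each CM class at or below 0.0133. In cells thinned to 5000 UMIs, 9.38% to 21.7% of vascular-like cells and 1.40% to 5.43% of chamber EdCs held an Acvrl1 UMI, against 0% to 0.0882% of red blood cells. Unthinned shares of red blood cells were 0% to 0.349%, at medians of 22811.5 to 60281 UMIs.

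Eng (ENSMUSG00000026814, protein-coding, chromosome 2, bases 32646595 to 32682669, plus strand) was widespread in the endothelium. It overlaps the neighbouring gene Fpgs by 61 bases. The promoter is shown beside that of Bmp10 because the receptor side lies in other cells than the ligand, with the same ETS core in capitals on either strand (RefSeq, GRCm38.p6, chr2:32646345-32646594, plus strand).
Eng: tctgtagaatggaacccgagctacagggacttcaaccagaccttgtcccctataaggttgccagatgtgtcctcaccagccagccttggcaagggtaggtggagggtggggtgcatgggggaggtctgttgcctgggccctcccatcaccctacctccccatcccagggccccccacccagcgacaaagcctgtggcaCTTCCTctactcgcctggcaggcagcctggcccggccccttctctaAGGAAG
The core was found 52 and 6 bases before the start, and none of the other 4 motifs was found in the window of 300 bases. Cushion EdCs, which line the endocardial cushions of the later valves, had an Eng level of 3.64 and 2.63 in control and 3.90 and 3.15 for Tie2-cko. Chamber EdCs, which line the ventricles and atria, were at 2.64 and 1.81 against 2.88 and 2.58. Cushion EdCs were higher than chamber EdCs within each of the 4 libraries, by 1.22 to 1.46 times, although the ranges over libraries overlap. Vascular-like cells (1.05 to 1.46) came next, below chamber EdCs in each library. MCs were at 0.897 and 0.729 in control and 0.853 and 0.705 for Tie2-cko, and divided into a cluster led by Rtn1 with 0.822 to 1.20 and a cluster led by Stmn4 and Postn with 0.257 to 0.343. CM classes did not exceed 0.0662.

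Endoglin and its partners were often found in the same cells. Of the 161 chamber EdCs with an Acvrl1 UMI, 151 (93.8%) held an Eng UMI, while 1350 of all 1558 chamber EdCs did so. In the vascular-like cells 87 of 103 cells with Acvrl1 (84.5%) held Eng, against 203 of 259. In chamber EdCs 623 of 681 cells with Tmem100 (91.5%) held Eng. These are counts over the 4 libraries. They were not corrected for depth, and nothing was read from the gap between the shares.

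Tmem100 (ENSMUSG00000069763, protein-coding, chromosome 11, bases 90030348 to 90036508, plus strand) encodes a small transmembrane protein. Chamber and cushion EdCs held 60.6% to 75.9% of its UMIs. Chamber EdCs had a level of 0.955 and 0.759 in controls 5 and 7 and 0.812 and 0.506 for Tie2-cko 6 and 8. As means over cells the genotypes overlapped, since Tie2-cko library 6 lay between the controls. With UMIs summed over cells the values were 0.980 and 0.777 against 0.758 and 0.581, and both Tie2-cko libraries lay below both controls. In cushion EdCs the level was 0.447 and 0.25 in control and 0.544 and 0.594 for Tie2-cko, and both Tie2-cko libraries lay above both controls on either scale. The order of the cell types therefore differed between libraries: chamber exceeded cushion EdCs by 2.14, 1.49 and 3.04 times in libraries 5, 6 and 7, and was 0.853 times as high in library 8. In cells thinned to 5000 UMIs, 23.6% and 26.1% of chamber EdCs of control and 30.2% and 14.8% of Tie2-cko libraries held Tmem100, and 12.6% and 7.33% against 14.4% and 15.6% of cushion EdCs. 0% to 0.162% of red blood cells did so.

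The fitted log2 fold change of Tmem100 was -0.44 ± 0.17 (SE) in chamber EdCs and 0.90 ± 0.22 in cushion EdCs. This is the contrast that chose the gene, so no test is given. When any 1 library was left out it ranged from -0.61 to -0.26 in chamber EdCs and from 0.57 to 1.30 in cushion EdCs. The gene was chosen for these opposite signs in the same libraries, so that they were kept is no support for them. The chamber value was nearest to 0 when control 5 (-0.26) or Tie2-cko 8 (-0.29) was left out, and the cushion value without control library 7 (0.57). Of all genes tested, 17.7% had both Tie2-cko libraries below both controls in chamber EdCs and 14.9% both above in cushion EdCs. The red cell sums given above were lower for Tie2-cko in both cell types, and their part in these values was not tested. Heart muscle transcripts, as a sign of free RNA, had a summed level over 8 genes of 17.9 and 24.3 in control and 12.7 and 26.8 in Tie2-cko chamber EdCs, and of 17.8 and 25.4 against 9.15 and 23.5 in cushion EdCs. In chamber EdCs none of the 8 had an unadjusted p under 0.05. In cushion EdCs their median log2 fold change was -0.43, against 0.00 over all genes, and 2 of the 8 were lower at an unadjusted p under 0.05. Without a block edgeR called none of the 8 in cushion EdCs, and with libraries 5 and 6 set against 7 and 8 as a block it called 6 of them, all lower for Tie2-cko. The summed level of 6 chamber markers in cushion EdCs was 2.70 and 2.58 in control and 2.91 and 2.88 for Tie2-cko, against 11.9 to 14.8 in chamber EdCs. The summed level of 8 MC markers was 3.96 and 3.91 against 4.67 and 4.38 in cushion EdCs and 0.929 and 1.04 against 1.23 and 1.40 in chamber EdCs. In cushion EdCs the 2 genotypes thus did not overlap in either marker sum, with Tie2-cko the higher, as for Tmem100. In chamber EdCs the MC marker sum was likewise higher for Tie2-cko without overlap, while Tmem100 was lower there on summed UMIs. The summed level of 8 vascular endothelial markers was 4.32 and 3.55 in control and 5.42 and 4.30 for Tie2-cko in cushion EdCs. In chamber EdCs it was 6.20 and 5.93 against 5.97 and 4.97. By the means of the genotypes this sum went in the same directions as Tmem100 in both cell types, but the libraries overlapped in both. The part of these transcripts and markers in the values of Tmem100 was not tested.

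Tmem100 was not an endothelial gene alone. An epithelial cluster led by Prlr, Foxe1 and Pax8, with 25, 29 and 57 cells in libraries 5, 6 and 8 and 5 cells in library 7, had a level of 1.05, 0.768 and 1.21, which is in the range of chamber EdCs or above. In vascular-like cells it varied more than in chamber or cushion EdCs (SD 0.286, 0.187 and 0.152, n = 4), with 0.419 and 0.611 in controls 5 and 7 and 0.118 and 0.785 for Tie2-cko 6 and 8. Libraries 5 and 6 thus both lay below libraries 7 and 8, the pairs that also differed in cell composition. MCs were at 0.0229 to 0.0359, and all CM classes were low (mean of at most 0.0363).

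**Figure D3:**
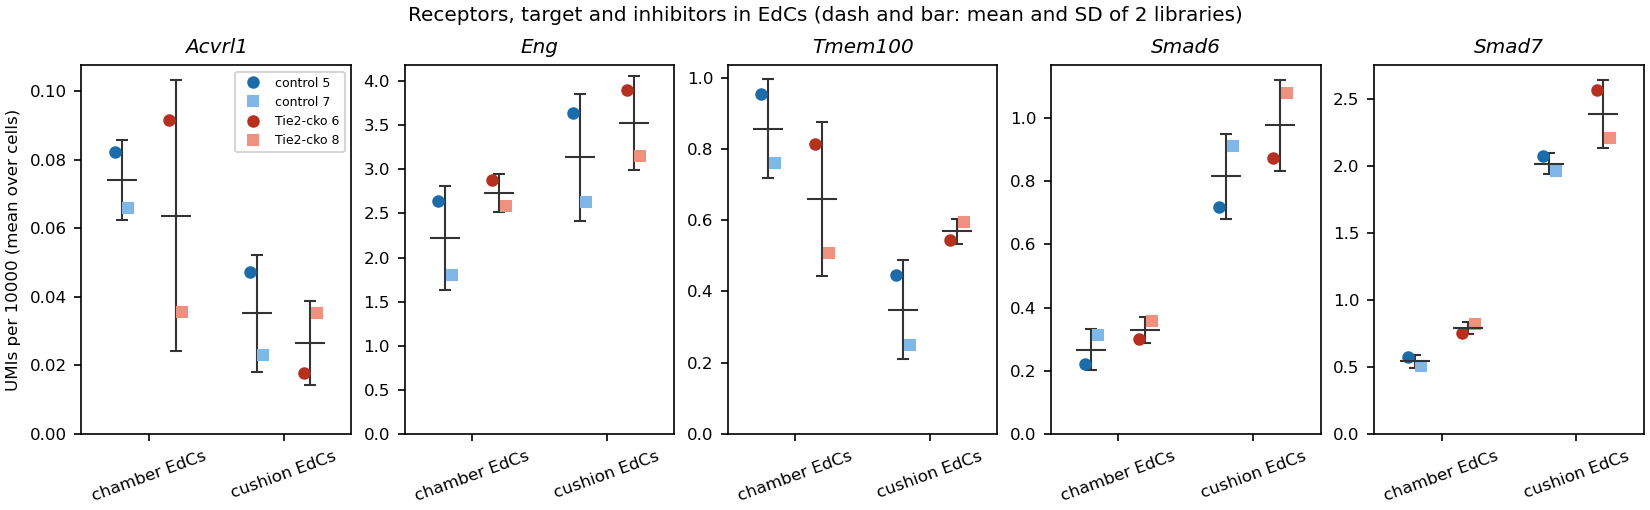
Levels (mean over cells of UMIs per 10000) of Acvrl1, Eng, Tmem100, Smad6 and Smad7 in chamber and cushion EdCs, with each library as a point and the mean and SD of the 2 libraries of a genotype as dash and bar. In Tmem100 the Tie2-cko points (0.544 and 0.594) lie above the controls in cushion EdCs, while in chamber EdCs the points of the genotypes overlap. In Smad7 both Tie2-cko points lie above both controls in both cell types.

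Smad6 (ENSMUSG00000036867, protein-coding, chromosome 9, bases 63953076 to 64022059, minus strand) encodes a protein that blocks mainly BMP receptors, while SMAD7 blocks both BMP and TGF-beta receptors. A stretch of 30 bases across the start of Smad6 is shown because it holds the palindrome GTCTAGAC that SMAD proteins bind, in capitals (RefSeq, GRCm38.p6, chr9:64022050-64022079, minus strand).
Smad6: gcggagccgccaaagtGTCTAGACtggcat
The palindrome spans the start, with 4 bases on either side, and 70 of the 32851 promoter windows (0.213%) hold it on either strand. The window of Smad6 held none of the other 4 motifs.

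Both inhibitors were highest in cushion cells and low in working CMs. The Smad6 level in cushion EdCs was 0.720 and 0.911 in control and 0.876 and 1.08 for Tie2-cko, 2.91 to 3.26 times that of chamber EdCs in the same library (0.221 and 0.313 against 0.30 and 0.358). Smad7 (ENSMUSG00000025880, protein-coding) was in cushion EdCs at 2.07 and 1.96 in control and 2.57 and 2.21 for Tie2-cko, 2.69 to 3.89 times that of chamber EdCs (0.577 and 0.505 against 0.755 and 0.820). The mesenchymal clusters came next. MCs were at 0.484 to 0.759 for Smad6 and 1.37 to 1.77 for Smad7, and overlapped the unnamed cluster led by Twist1, Hapln1 and Col9a3 (0.571 to 0.907 and 1.39 to 1.66). Among CMs, the sinus and AV canal-like and the outflow-like cells stood out: Smad6 was at 0.227 to 0.474 and Smad7 at 0.529 to 1.05 in these classes, against 0.0502 to 0.0887 and 0.151 to 0.179 in ventricular-like CMs. The 2 genes followed each other across 20 cell types and unnamed clusters, with a Pearson correlation of 0.88 of log2(level + 0.1). Eng and Tmem100 did so with 0.80, and Bmp10 with no member (-0.27 to -0.20). All points of such a correlation come from the same 4 libraries.

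In chamber EdCs the fitted log2 fold change of Smad7 was 0.49 ± 0.14 and in cushion EdCs 0.19 ± 0.13, with both Tie2-cko libraries above both controls in each. For Smad6 the values were 0.27 ± 0.21 and 0.18 ± 0.16, for Eng 0.26 ± 0.19 and 0.06 ± 0.18, and for Acvrl1 -0.14 ± 0.32 and 0.17 ± 0.41, and libraries of the genotypes overlapped in each of these. Both Tie2-cko libraries lay above both controls for 19.4% of the genes tested in chamber EdCs and 14.9% of those in cushion EdCs. In chamber EdCs, leaving out 1 library moved Eng from 0.01 (without control library 7) to 0.56 (without control library 5), Smad6 from -0.0009 (without Tie2-cko library 8) to 0.49 (without Tie2-cko library 6), and Acvrl1 from -0.64 (without Tie2-cko library 6) to 0.23 (without Tie2-cko library 8). In cushion EdCs Eng moved from -0.16 (without control library 7) to 0.32 (without control library 5), and Smad6 reached 0.36 without control library 7. Acvrl1 in cushion EdCs moved from -0.17 (without control library 7) to 0.55 (without control library 5), and was -0.03 without Tie2-cko library 8. Smad7 lay between 0.36 and 0.60 in chamber EdCs. The genes were chosen by values of these data, so a range that keeps its sign is no support.

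Outside the EdCs, where the choice of genes did not rest on a difference between the genotypes, none of the 6 genes passed the test. This held for 42 fits in 9 cell types, all CMs together and their classes being counted separately (edgeR adjusted p of 1.00 in each). None had an unadjusted p under 0.05, the lowest being 0.0668, and DESeq2 called none. Over all genes of these 9 cell types, 110375 fits in all, edgeR called 0.00634%, 0.901% had an unadjusted p under 0.05, and DESeq2 called 0.0308%. In vascular-like cells the log2 fold change was -0.16 ± 0.30 for Acvrl1, 0.32 ± 0.21 for Eng, 0.34 ± 0.91 for Tmem100, 0.16 ± 0.35 for Smad6 and 0.33 ± 0.25 for Smad7. In MCs it was -0.20 ± 0.14 for Eng, -0.52 ± 0.35 for Tmem100, 0.18 ± 0.21 for Smad6 and 0.12 ± 0.13 for Smad7. The highest value, 1.56 ± 0.76 for Eng in trabecular-like CMs, rests on 8 and 12 UMIs in control and 48 and 12 for Tie2-cko, and thus on library 6. With 2 libraries a genotype, differences of several SE could also fail the test. Tek in cushion EdCs, at -2.02 ± 0.27, did so (edgeR adjusted p = 0.121).

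**Figure D4:**
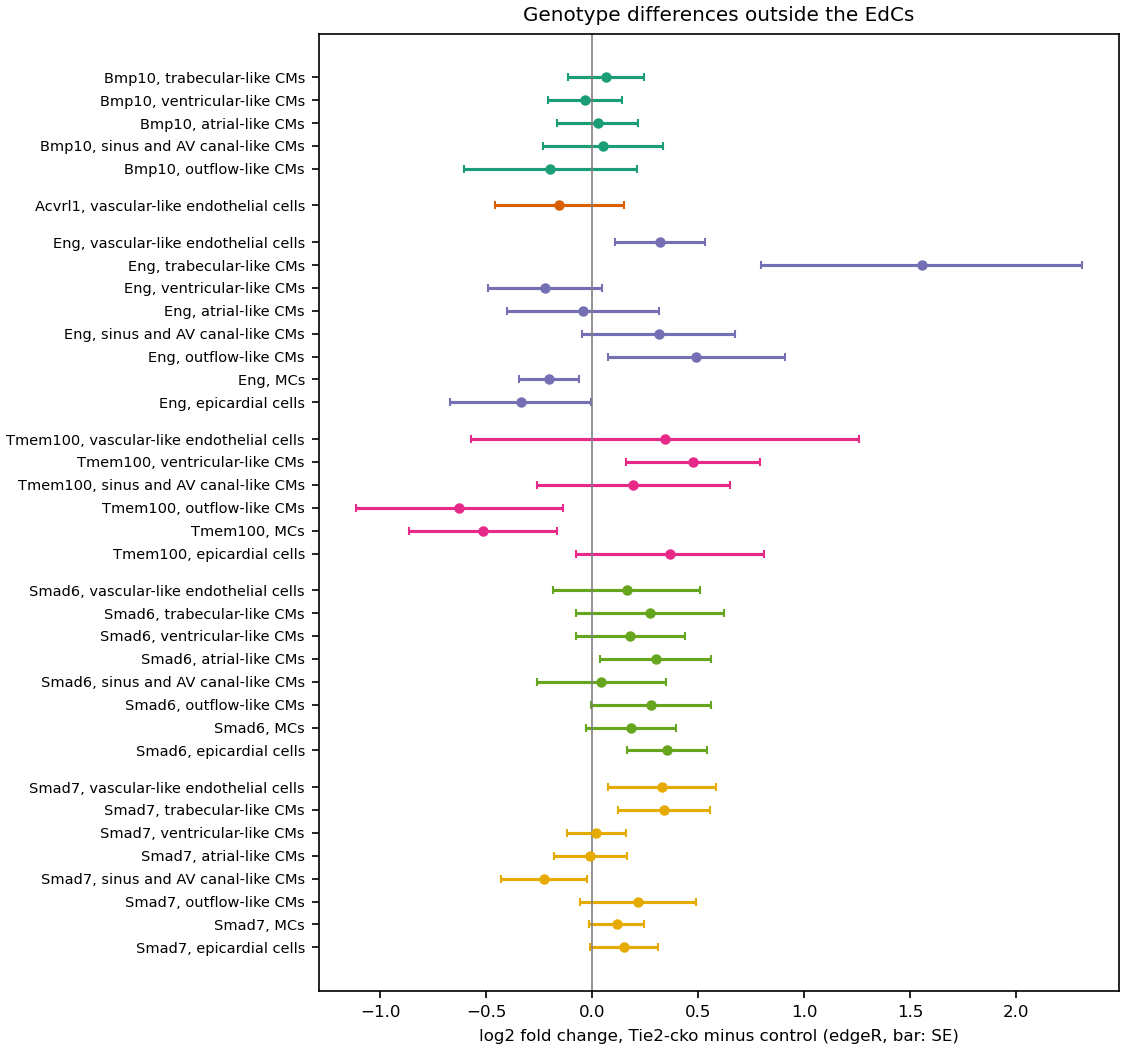
Log2 fold change of Tie2-cko over control from edgeR (point) with its SE (bar) for each gene in each cell type outside the EdCs in which it passed the filter on low counts. Bmp10 lies near 0 in trabecular-like, ventricular-like and atrial-like CMs, and the farthest point is Eng in trabecular-like CMs (1.56 ± 0.76).

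**Figure D5:**
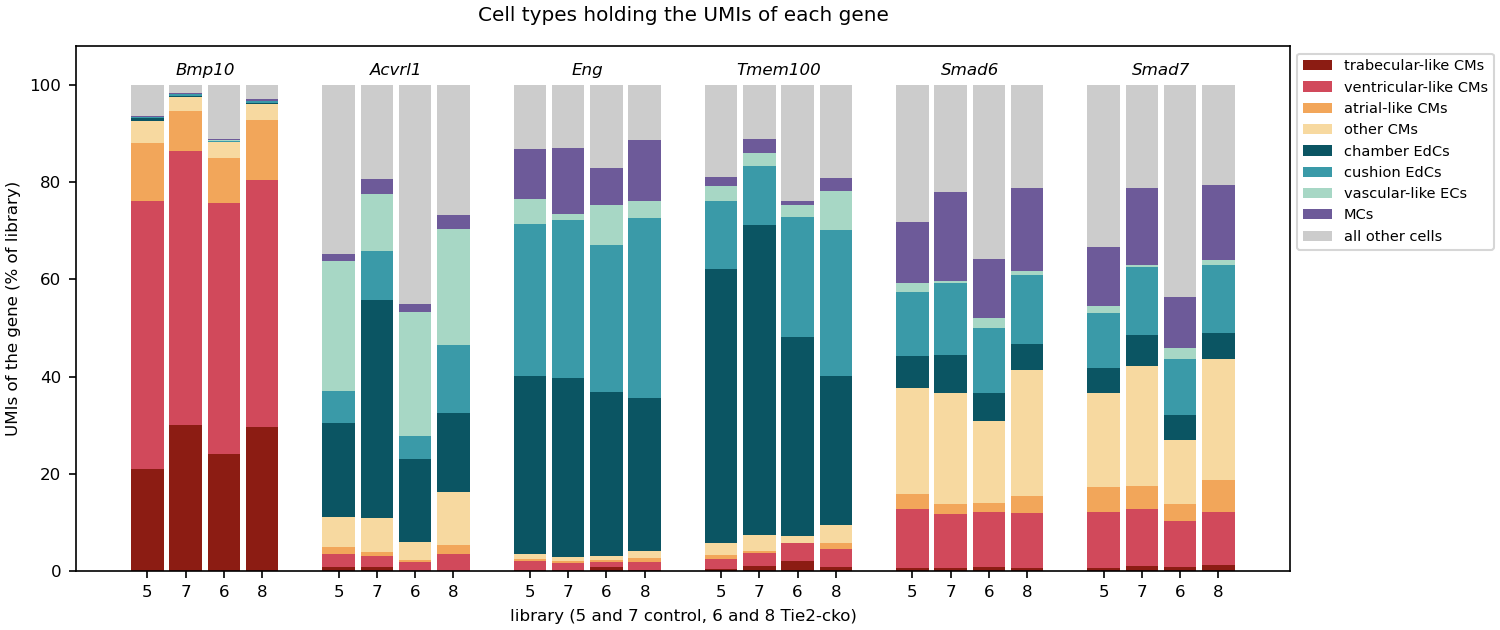
Share of the UMIs of each gene (% of all its UMIs in a library) held by each cell type, with 1 stacked bar per library. CMs hold 88.3% to 97.5% of Bmp10, and chamber and cushion EdCs 60.6% to 75.9% of Tmem100, while Smad6 and Smad7 are divided among CMs, EdCs and MCs.

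The rest of the pathway was read from 52 genes in 5 lists. Of these, 44 passed the filter in chamber EdCs and 44 in cushion EdCs, and edgeR called none after adjustment over all genes. In cushion EdCs it called 0% of all genes. At an unadjusted p under 0.05, 9 of 44 (8 higher and 1 lower in Tie2-cko) were found in chamber EdCs, where 6.80% of all 11508 genes had such a p, and 4 of 44 in cushion EdCs, where 2.37% of 11309 genes did. The lists were chosen with earlier results of these data known, so an excess of list genes over these shares is not a test of the pathway. DESeq2 called 3 in chamber EdCs (Edn1, Gja4 and Pdgfb) and 1 in cushion EdCs (Gja4), among 22 (0.191%) and 10 (0.0884%) genes called in all. With libraries 5 and 6 set against 7 and 8 as a block, edgeR called 6 of the 44 in chamber EdCs (Crim1, Edn1, Esm1, Gja4, Nppa and Pdgfb) and 3 in cushion EdCs (Fst, Gja4 and Nppa), among 335 (2.91%) and 123 (1.09%) genes. None of the 36 genes tested in vascular-like cells, the 34 in trabecular-like CMs and the 43 in MCs was called by edgeR without the block or by DESeq2. With the block 2, 2 and 1 of them were called, Id2 and Nppa in vascular-like cells, Hey2 and Nppa in trabecular-like CMs and Nppa in MCs. The Nppa level was 0.614 to 3.92 in EdCs, vascular-like cells and MCs, against 191 to 270 in trabecular-like CMs. The block also called 7 of 8 heart muscle transcripts in MCs and 6 in cushion EdCs, all lower for Tie2-cko. It called 0 in chamber EdCs and 1, which was higher, in vascular-like cells. The part of free RNA in the Nppa calls was not tested.

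Among the other receptors and mediators, Bmpr2, the type II receptor for BMP10, was at 0.609 to 0.821 in chamber and 0.855 to 1.00 in cushion EdCs. Acvr1 and Bmpr1a, which encode the type I receptors ALK2 and ALK3, were at 0.273 to 0.328 and 0.375 to 0.475 in chamber EdCs. Tgfbr3, which encodes betaglycan, the relative of endoglin, was at 0.623 to 0.789 in chamber and 0.120 to 0.211 in cushion EdCs. Smad4 was at 0.405 to 0.613 and 0.848 to 0.962, and Smad9 did not exceed 0.0380. None of the 11 genes of this list that were tested had an unadjusted p under 0.05 in chamber or cushion EdCs, and their median log2 fold change was 0.23 and 0.03, against 0.01 and 0.00 over all genes.

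Of the 13 targets of BMP signalling, 3 had higher and 1 lower values in Tie2-cko chamber EdCs at an unadjusted p under 0.05, and 3 higher and 0 lower in cushion EdCs. Id1 and Id3, the inhibitors of DNA binding that BMP induces in most cells, were at 1.96 to 2.28 and 6.49 to 7.37 in chamber EdCs and at 3.55 to 4.30 and 11.5 to 13 in cushion EdCs. The median log2 fold change of the 13 targets was 0.04 in chamber and 0.33 in cushion EdCs. Gja4, which encodes connexin 37, had values in the same directions as Tmem100: in chamber EdCs 2.33 and 2.21 in control against 1.33 and 1.55 for Tie2-cko (log2 fold change -0.78 ± 0.14, edgeR adjusted p = 0.253), and in cushion EdCs 0.671 and 0.482 against 1.06 and 0.905 (0.98 ± 0.19, edgeR adjusted p = 0.796). Edn1, which encodes endothelin-1, was at 0.469 and 0.391 against 1.11 and 1.22 in chamber EdCs (1.33 ± 0.21, edgeR adjusted p = 0.248). Of genes that ALK1 is known to lower in vessels, Pdgfb was at 0.0496 and 0.0409 against 0.177 and 0.134 in chamber EdCs (1.89 ± 0.25, edgeR adjusted p = 0.237) and Esm1 at 0.00700 and 0.000979 against 0.0466 and 0.0336 (edgeR adjusted p = 0.253). Esm1 was thus low in each library. Pgf of the same list was at 0.0632 and 0.0886 against 0.0564 and 0.0616 (-0.05 ± 0.27, edgeR adjusted p = 0.981), and Apln, Cxcr4 and Angpt2 did not exceed 0.0307. Angpt2 was at 0.0307 and 0.00641 against 0.0242 and 0.0267, so that the genotypes overlapped. The 4 genes of this list that were tested had a median log2 fold change of 1.11 in chamber and 0.02 in cushion EdCs. In chamber EdCs 2 of the 4 had both Tie2-cko libraries above both controls, against 19.4% of all genes tested there. Among the inhibitors, Crim1, which binds BMPs at the cell surface, was at 0.117 and 0.0954 against 0.188 and 0.201 in chamber EdCs (1.03 ± 0.20, edgeR adjusted p = 0.253).

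Genes with the pattern most like each member were sought across the same 20 cell types and clusters among 4815 genes with a level of at least 0.5 in 1 of them, by the Pearson correlation of log2(level + 0.1). For Bmp10 these were Nppb (0.89), Nppa (0.89) and Abcc9 (0.88). For Acvrl1 they were Cldn5, Oit3 and Fam167b (0.95 each), which are among the leading genes of the vascular-like cluster. For Eng they were Gngt2 and Abi3 (0.99 each) and Icam2 (0.98), and for Tmem100 Adgrf5 (0.94), Mmrn2 (0.93) and Rasip1 (0.92). Edil3 (0.93), Adam19 (0.92) and Furin (0.91) were most like Smad6. For Smad7 they were Fstl1 (0.92), Bmpr2 (0.91) and Skil (0.90), the last a repressor of SMAD activity. These are correlations across cell types within the same 4 libraries and carry no test.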

How the data were processed

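The deposited matrices hold raw counts of UMIs per gene and cell barcode for 4 libraries. Per the file headers they were made with Cell Ranger 6.1.2, and the submitters' processing notes name mm10. Library totals were 169361996 to 259775540 UMIs. Cells needed 500 genes and 1000 UMIs or more, with no more than 10% of UMIs from mitochondrial genes. Doublets were scored with Scrublet (scanpy 1.11.5) and removed at 0.8% per 1000 barcodes, which took out 982, 285, 664 and 798 barcodes of libraries 5, 6, 7 and 8. Cells were clustered in Seurat 5.3.0 on 2000 variable genes, from which 59 genes (members and pathway genes among them) had been removed. The graph used 20 neighbours in 30 principal components, and a resolution of 0.8 gave 28 clusters. Clusters were named from marker lists. Those with a median depth under 0.333 of their libraries, fewer than 3 markers or no more than 0.5 of a list stayed unnamed. MCs also needed Postn. A cluster with more markers of another class than of its own among its leading genes stayed unnamed too. Names were rebuilt here and may differ from those of the study.

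Sums of UMIs over the cells of a type in a library were tested with the quasi-likelihood test of edgeR 4.0.16 (TMM scaling, filterByExpr, Benjamini-Hochberg adjustment over all genes of a cell type, threshold 0.05). Each SE is the size of the log2 fold change over the square root of F. Alternatives were DESeq2 1.42.0, its size factors, no filter on low counts, a block for libraries 5 and 6, other cell filters and clusterings, and leaving out each library. Scripts were tested on simulated data. The text names the members in every cell type, Tek, genes of the pathway lists by their role, and for each member the 3 genes most like it. Members and lists were chosen with earlier results of these data known. Coordinates are from GENCODE M21 (GRCm38). How strand was used in counting is not given in the sources used here.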

Additional observations from a re-analysis of the deposited data

Results flagged for a closer look

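For some pairs of cell types both Tie2-cko libraries lay above both controls in one and below both in the other, on UMIs summed over cells. The differences between the cell types were not tested. Over 29 fits of the 6 genes in 6 cell types, both Tie2-cko libraries lay above both controls in 9 and below both in 3. Of all genes tested in these cell types, 8.93% (CMs) to 19.4% (chamber EdCs) lay above. The share below was 8.19% (CMs) to 17.7% (chamber EdCs). For Tmem100 the log2 fold change was 0.90 in cushion EdCs and -0.44 in chamber EdCs, 1.34 apart, and this pair is the one by which the gene was chosen. Cushion EdCs and MCs (-0.52) were 1.42 apart. Epicardial cells (0.37) were 0.81 apart from chamber EdCs and 0.88 from MCs, at Tmem100 levels of 0.0122 to 0.0156 in epicardial cells and 0.0229 to 0.0359 in MCs. These rest on 8 and 13 UMIs in control and 12 and 22 for Tie2-cko in epicardial cells, and on 24 and 33 against 10 and 33 in MCs. As means over cells the genotypes overlapped in both cell types. For Eng the log2 fold change was 0.32 in vascular-like endothelial cells and -0.20 in MCs, 0.52 apart. The value over all CMs (0.19) was 0.39 above that of MCs. No group held 4 or more libraries, so single libraries were not examined as outliers.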

How the results depend on the processing

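The labels give the 2 genotypes no shared replicate numbers. The methods give control and mutant libraries of 1 litter matched by somite number, without saying which library goes with which. As an alternative, a block set libraries 5 and 6 against 7 and 8, each with 1 library of each genotype. It was chosen from these data, because libraries 5 and 6 held more cells outside the cardiac types, and no label names such a batch. With 4 libraries, the fit with the block leaves fewer degrees of freedom than the fit without it. Outside the EdCs, alternatives were examined for some members and cell types only. These were Bmp10 in all, ventricular-like, trabecular-like and atrial-like CMs, and the other members in vascular-like cells. Eng, Smad6 and Smad7 in MCs, and Smad6 and Smad7 over all CMs and in epicardial cells, were added. In these, fold changes kept their direction in 161 of 181 alternative fits. Bmp10 over all CMs was -0.0017 with doublets kept, and Tmem100 in vascular-like cells was -0.17 with the block for libraries 5 and 6 and -0.16 with members and pathway genes kept among the variable genes. Leaving out 1 library turned the sign of some values, the library that gave each end being in parentheses. Bmp10 ranged from -0.18 (8) to 0.17 (6) over all CMs, with -0.11 without library 5, from -0.25 (8) to 0.15 (6) in ventricular-like CMs, with 0.11 without library 7, from -0.12 (8) to 0.22 (6) in trabecular-like CMs and from -0.12 (8) to 0.18 (5) in atrial-like CMs, with -0.10 without library 7. In vascular-like cells Acvrl1 ranged from -0.38 (8) to 0.067 (6), Tmem100 from -1.84 (8) to 1.36 (6), with -0.44 without library 5, and Smad6 from -0.15 (8) to 0.49 (6). Smad6 ranged from -0.086 (5) to 0.53 (7) in MCs and from -0.19 (8) to 0.54 (7) over all CMs, with -0.13 without library 5. Smad7 ranged from -0.28 (8) to 0.21 (6) over all CMs, with 0.18 without library 7, and from -0.0018 (6) to 0.31 (8) in epicardial cells.

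Counts of genes called over all genes moved most. With DESeq2 they were 22 in chamber EdCs, 10 in cushion EdCs, 6 in vascular-like cells, 2 in CMs, 1, 0, 0, 4 and 5 in ventricular-like, trabecular-like, atrial-like, sinus and AV canal-like and outflow-like CMs, 9 in MCs and 7 in epicardial cells. With the block for libraries 5 and 6 they were, in the same order, 335, 123, 28, 119, 165, 44, 45, 12, 52, 123 and 64, and with no filter on low counts 157, 39, 25, 0, 8, 17, 20, 22, 16, 23 and 0. Cushion EdCs had 4 with the stricter cell filter and 1 with doublets kept, epicardial cells 1 with doublets kept, and MCs 2 at a resolution of 0.4. Leaving out 1 library gave 42 to 174 in chamber EdCs, 2 to 26 in cushion EdCs, 0 to 4 in vascular-like cells, 0 to 2 in CMs, 0 to 6 in ventricular-like, 2 to 13 in trabecular-like, 0 to 1 in atrial-like, 0 to 9 in sinus and AV canal-like and 0 to 9 in outflow-like CMs, 10 to 27 in MCs and 6 to 63 in epicardial cells. The cause was not tested. Adding the cluster of low UMI number led by Klhl4, Gngt2 and Tm4sf1 to the chamber EdCs gave -0.43 for Tmem100, and this was chosen after seeing the data. Trabecular-like CMs formed a cluster of their own only in the clustering used, and vascular-like cells were not separate at a resolution of 0.4.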
